A study of Mus musculus with 4 samples.

Results

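The 10 genes described here encode ligands and receptors of the bone morphogenetic protein (BMP) and transforming growth factor beta (TGF-beta) families. The ligand genes are Bmp2, Bmp4, Bmp6 and Tgfb1, the receptor genes Acvrl1, Bmpr1a, Bmpr2 and Tgfbr2, and the co-receptor genes Eng and Tgfbr3. They were taken by symbol from the annotation of the expression array, where 23 probe sets of the 34958 with a single gene symbol belong to them, that is 10 of 18194 genes. All 10 exceeded a signal of 100 in at least 1 population, as did 9468 of the 18194 genes.

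RNA of 4 populations, sorted from mouse ES cells after 6 days of co-culture with the stromal line OP9, was measured on Affymetrix mouse genome arrays, 1 for each population. Population 1 was negative for the Runx1-Venus reporter and positive for VE-cadherin and Flk1, and is the endothelial population. Population 2 was positive for Runx1-Venus and VE-cadherin and negative for CD41, population 3 was positive for Runx1-Venus, VE-cadherin and CD41, and population 4 was positive for Runx1-Venus and CD41 and negative for VE-cadherin, the haematopoietic progenitors. All populations came from a single heterozygous line, Runx1(Venus/+), derived from CCE ES cells, in which Venus was placed under the proximal Runx1 promoter P2, so that every population carries a single intact Runx1 allele.

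BMP and TGF-beta ligands are secreted dimers that bring together type II and type I receptor kinases at the cell surface. The type I receptor then phosphorylates Smad proteins, which enter the nucleus and act on target genes such as those of the Id family. In mouse development BMP signals are needed for ventral mesoderm, from which blood and vessels arise, and receptors of both families are needed for the vessels of the yolk sac and embryo.

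The values are deposited signals, that is linear intensities. With 1 array per population no test between populations is possible and no error can be given. The paper also describes a second replicate set of these populations on Agilent arrays, which was not used here. For fold changes, a signal under 100 was replaced by 100. Such a fold is then a lower bound, and is written as "at least". A difference is counted when it reached 2-fold on that scale. Only the agreement between probe sets on the same arrays can be given. When population 4 was set against population 1, a gene's brightest probe set and another of its probe sets differed by a median of 0.22 in log2 ratio. This was over 4339 pairs above 100 on all arrays. Both members of a pair share the same RNA and arrays. Their difference therefore holds no variation between sorts or hybridisations, and does not give the precision of a difference between populations. Of the genes described here, only Bmpr1a is among these pairs. Bmp2, Bmp4 and Bmp6 have a single probe set each. Tgfb1, Acvrl1, Bmpr2, Tgfbr2, Eng and Tgfbr3 have no second probe set above 100 on all arrays. Bmp4, Bmp6 and Acvrl1 fell under 100 in population 4 on their brightest probe set.

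The median gene was not at the same level on all arrays, and the cause was not tested. Of the 9468 genes, the median log2 ratio with signals raised to 100 was 0.36 for population 4 over population 1, 0.00 for population 2 over population 1, 0.22 for population 3 over population 2 and 0.06 for population 4 over population 3. The summed signal of 10 endothelial markers was 28348, 18314, 22539 and 1857 in populations 1 to 4, and 4 of the 10 exceeded 100 in population 4. These 4 were Kdr, Pecam1, Tek and Esam, at 906, 305, 254 and 202 in population 4. Among the others, the sort marker Cdh5 (VE-cadherin) was at 40.9 there and Cldn5 at 24.4. The summed signal of 7 erythroid markers was 246, 336, 4649.8 and 47997.5, and that of 10 stromal and mesenchymal markers, the kind of cell the OP9 feeder is, was 5007, 3745, 2886 and 2208. The part of these cell type markers in the results below was not tested. In such bulk samples, fewer cells of a type and less RNA per cell cannot be told apart.

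Most of these genes were lower in haematopoietic progenitors than in endothelium. Between populations 4 and 1, 5 of the 10 genes were at least 2-fold lower, namely Bmp4, Acvrl1, Bmpr2, Tgfbr2 and Eng, where 12.9% of all 9468 genes were. Only Bmp2 was at least 2-fold higher, where 22.4% of all genes were. The median log2 ratio was -0.98 over the 10 genes and 0.36 over all genes. Population 4 held the lowest signal for 7 of the 10 genes, against 27.6% of all genes, and the highest for Tgfbr3 alone, against 51.8% of all genes. Population 1 held the lowest signal for the other 3, Bmp2, Tgfb1 and Tgfbr3, against 45.5% of all genes.

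**Figure D1:**
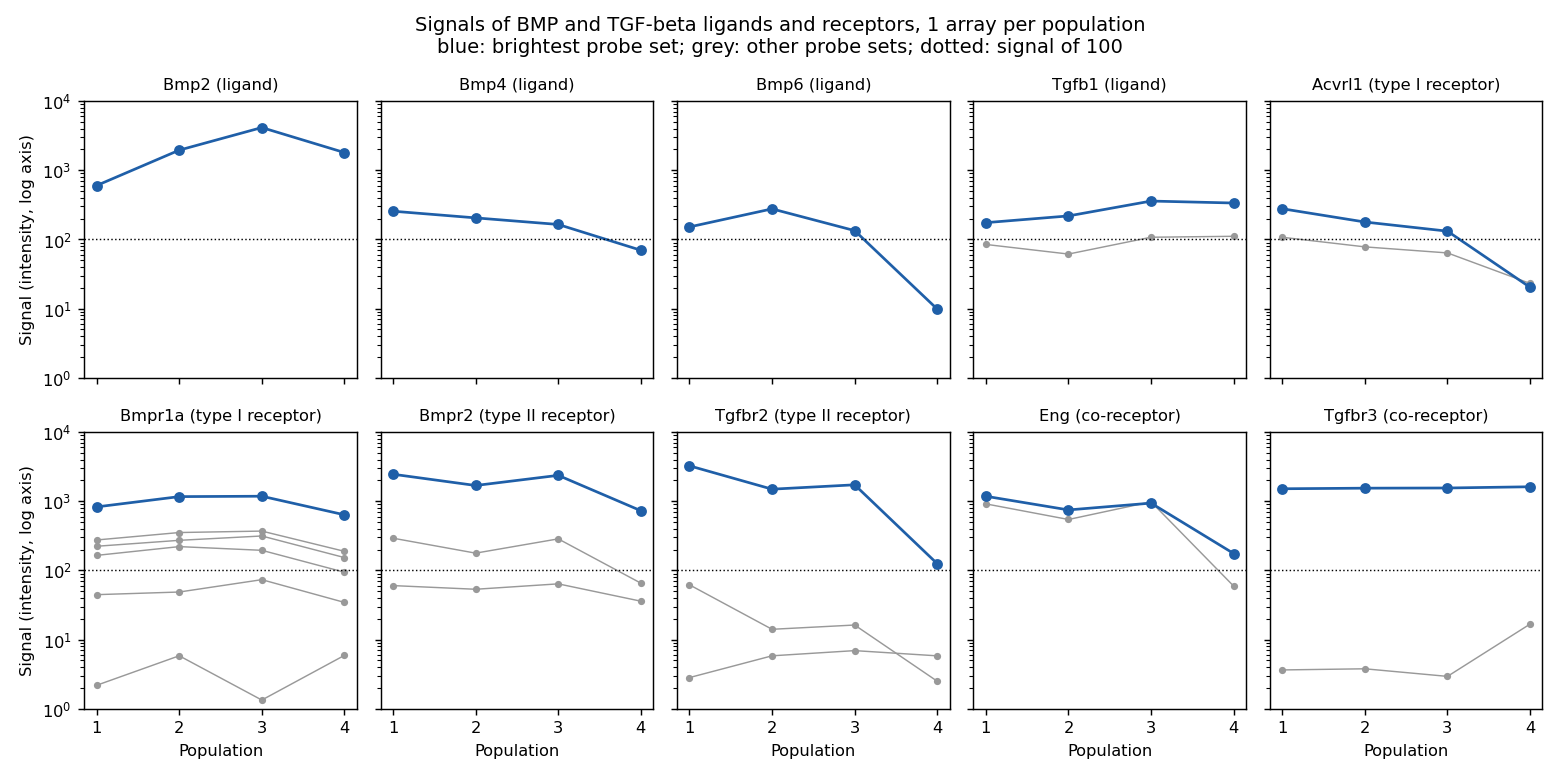
Signal (intensity, log axis) of the 10 genes in each population from 1 to 4. Each point is 1 array, so no error bars are drawn. Blue lines are the brightest probe set of each gene, grey lines its other probe sets and the dotted line a signal of 100. Tgfbr2 is at 125 in population 4, against 3243 in population 1, while Bmp2 is highest in population 3, at 4141.

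Among the ligands, Bmp2 stood apart from the others. Bmp2, an inducer of mesoderm, heart and bone, gave signals of 602, 1953, 4141 and 1802 in populations 1, 2, 3 and 4. Its transcript was thus lowest in Runx1-negative endothelium and highest in the cells that carried Runx1-Venus, VE-cadherin and CD41 together. Population 3 was 6.88-fold above population 1, a comparison in which 5.32% of all genes were at least 2-fold higher. The first step, from population 1 to 2, accounted for 3.25-fold, where 2.92% of all genes were at least 2-fold higher. Population 3 was 2.12-fold above population 2, where 3.11% of genes were at least 2-fold higher, but this log2 ratio of 1.08 was 0.66 after centring on the array median, 0.68 after scaling on the poly-A controls and 0.87 after quantile normalisation. Population 4 was 2.30-fold below population 3, where 12.2% of genes were at least 2-fold lower, and above population 1 by a log2 ratio of 1.58. Bmp2 has a single probe set on this array, so that no second probe set can be set beside these values.

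Bmp4 and Bmp6 were lowest in population 4. Bmp4, which induces ventral mesoderm and blood in the embryo, had signals of 256, 205, 165 and 69.9 in populations 1 to 4. Population 4 was at least 2.56-fold below population 1, and the signal was lower at each step, except that population 3 over population 2 came to a log2 ratio of 0.06 with scaling on the hybridisation controls. With signals raised to 200, population 4 over population 1 was at -0.36. Bmp6, which in the adult liver regulates iron through hepcidin, had signals of 152, 277, 134 and 9.86. Its highest value was in population 2, 1.82-fold above population 1, and population 3 was 2.06-fold below population 2, where only 0.253% of all genes were at least 2-fold lower. With scaling on the hybridisation controls that log2 ratio of -1.04 was -0.67. Since its signal in population 4 was far under 100, the 1.52-fold difference of population 4 from population 1 is only a lower bound, and with signals raised to 50 the log2 ratio was -1.60. Both genes have 1 probe set each, and their highest signals, 256 and 277, are not far above the limit of 100.

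Tgfb1 went the other way from Bmp4. Tgfb1 encodes a ligand that restrains the growth of many blood and endothelial cells, and had signals of 175, 219, 359 and 336 in populations 1, 2, 3 and 4. Populations 3 and 4 were above populations 1 and 2 on the deposited scale. Populations 3 and 4 were 2.05-fold and 1.92-fold above population 1. For population 3 the log2 ratio of 1.04 fell short of 2-fold under 5 of 8 alternatives, at 0.69 to 0.84. Its other probe set, with 84.7, 61.5, 108 and 111, was also higher in populations 3 and 4 than in the other two, but lower in population 2 than in population 1. The order of populations 3 and 4 is not settled, since population 4 over population 3 had a log2 ratio of -0.09 on the deposited scale, 0.08 after centring on the array median and 0.09 after scaling on the poly-A controls.

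The type I receptor genes differed in pattern. Acvrl1 encodes ALK1, the type I receptor that endothelial cells use for circulating BMPs, and had signals of 278, 179, 132 and 20.3 in populations 1 to 4. Population 4 was at least 2.78-fold below population 1, and population 3 was already 2.11-fold below it, where 2.3% of all genes were at least 2-fold lower. Neither difference reached 2-fold with the mean over probe sets, where both log2 ratios were -0.79, or with signals raised to 200, where both were -0.47. That of population 3 was -0.75 with scaling on the hybridisation controls. The other Acvrl1 probe set had 108, 78.1, 63.9 and 23.2, above 100 only in population 1, so that it does not order the later populations. The ligands with high affinity for ALK1, Gdf2 (BMP9) and Bmp10, did not exceed 40.8 and 5.52 in any population.

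Bmpr1a, a widely expressed type I receptor for Bmp2 and Bmp4, had signals of 827, 1164, 1179.8 and 636 in populations 1, 2, 3 and 4. No comparison reached 2-fold. Populations 2 and 3 were above both ends of the series, by 1.41-fold and 1.43-fold over population 1, and population 4 was 1.86-fold below population 3. Of the other 5 probe sets, 3 exceeded 100 in at least 1 population, and each of these was likewise higher in populations 2 and 3 than in populations 1 and 4. The remaining 2 did not exceed 73.4 in any population.

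Both type II receptor genes were lower in population 4. Tgfbr2, the type II receptor through which all TGF-beta ligands signal, had signals of 3243, 1491, 1724 and 125 in populations 1 to 4. It was the gene among the 10 with the largest difference, with population 4 at 26.0-fold below population 1, and only 0.38% of all 9468 genes had a lower ratio. Most of that lay between populations 3 and 4, where it was 13.8-fold lower. Population 2 was 2.18-fold below population 1, where 4.19% of all genes were at least 2-fold lower, but the log2 ratio of -1.12 was -0.96 after centring on the array median and -0.97 after scaling on the poly-A controls. The other 2 probe sets of Tgfbr2 stayed under 100 in every population. One of them had 61.9, 14.1, 16.2 and 2.50, and the other did not exceed 6.93, too low to order the populations. With the mean over the 3 probe sets the gene lay under 100 throughout, and its log2 ratios were 0.

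Bmpr2 is the type II receptor for BMPs, of which inherited defects cause pulmonary arterial hypertension in people. It had signals of 2451, 1686, 2362 and 729 in populations 1 to 4. Population 4 was apart from the other 3, at 3.36-fold below population 1 and 3.24-fold below population 3. Its second probe set, with 292, 177, 285 and 65.4, gave the same order and here population 4 was at least 2.92-fold below population 1. The third did not exceed 63.9.

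The co-receptor genes differed from each other. Eng encodes endoglin, an endothelial co-receptor that binds the ligands together with ALK1, and had signals of 1178, 748, 938 and 175 in populations 1, 2, 3 and 4. Population 4 was 6.72-fold below population 1 and 5.35-fold below population 3. Its other probe set had 914, 544, 979 and 59.3, and on it population 4 was at least 9.14-fold below population 1. Population 3 lay above population 2 on both probe sets as deposited, but for the brighter of them the log2 ratio of 0.33 was -0.10 after centring on the array median and -0.08 after scaling on the poly-A controls.

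Tgfbr3 encodes betaglycan, a co-receptor that presents TGF-beta ligands, chiefly TGF-beta 2, to the type II receptor. It had signals of 1512, 1542, 1551 and 1616 in populations 1 to 4. It varied by 1.07-fold over the whole series. Of 1572 genes with a signal of at least 1000 in all 4 populations, 2.93% varied by less than 1.1-fold. The near level values depend on the scale between arrays. For population 4 over population 1 it had a log2 ratio of 0.10 as deposited, -0.20 after quantile normalisation and 0.43 after scaling on the hybridisation controls, and as deposited it was 0.27 below the median of all genes. The other Tgfbr3 probe set did not exceed 16.8.

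**Figure D2:**
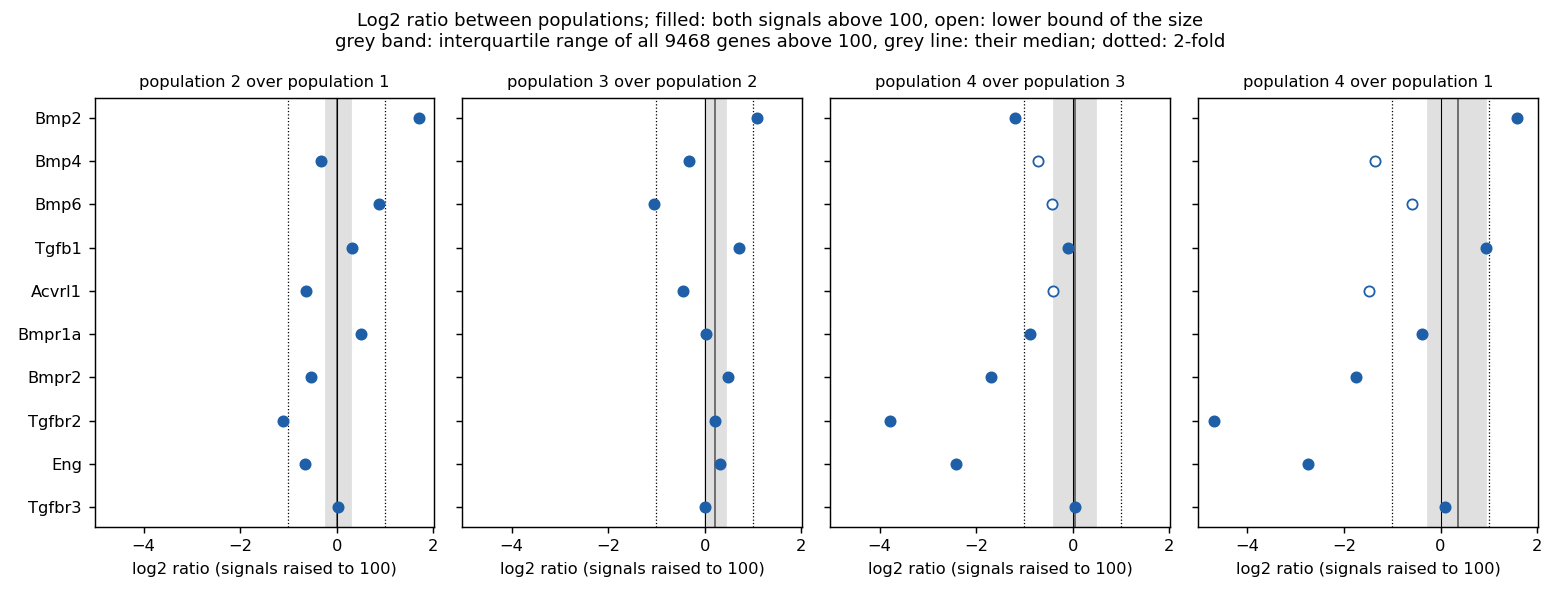
Log2 ratio of the 10 genes between populations, with signals raised to 100, for the 3 steps of the series and for population 4 over population 1. Filled points have both signals above 100, open points are lower bounds of the size, the grey band is the interquartile range of all 9468 genes and the dotted lines mark 2-fold. Tgfbr2, Eng and Bmpr2 lie at -3.79, -2.42 and -1.70 for population 4 over population 3.

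By step, the largest differences lay between populations 3 and 4. There 4 of the 10 genes were at least 2-fold lower, Bmp2, Bmpr2, Tgfbr2 and Eng, beside 12.2% of all genes, and 0 were at least 2-fold higher, beside 7.94% of all genes. From population 1 to 2, Tgfbr2 was at least 2-fold lower, beside 4.19% of all genes, and Bmp2 higher, beside 2.92%. From population 2 to 3, Bmp6 was at least 2-fold lower, beside 0.253% of all genes, and Bmp2 higher, beside 3.11%. The medians over the 10 genes were -0.15 for population 2 over population 1, 0.11 for population 3 over population 2 and -0.81 for population 4 over population 3. Ranked by the highest signal, 5 genes were highest in population 1 (Bmp4, Acvrl1, Bmpr2, Tgfbr2 and Eng), against 16.4% of all genes, Bmp6 alone in population 2, against 5.51%, and Bmp2, Tgfb1 and Bmpr1a in population 3, against 26.3% of all genes. In population 3 the top signals of Bmpr1a and Tgfb1 were within 1.01-fold of population 2 and 1.07-fold of population 4, too near to order. The same holds for Bmpr2, with population 3 within 1.04-fold of population 1. Scaled on the hybridisation controls, its log2 ratio for this pair was 0.27 in place of -0.05.

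The genes with the profiles nearest to Bmp2, Tgfbr2 and Eng, the members that varied by at least 4-fold, were sought among 6054 genes with a signal of at least 400. Likeness was the Euclidean distance between log2 profiles over the 4 populations after the mean was subtracted, and is a description of 4 arrays. Nearest to Bmp2 was Npl, a lyase of sialic acid breakdown, at a distance of 0.33, with signals of 233, 831, 1629 and 561. The tetraspanin gene Tspan12 followed at 0.45 and the scaffold protein gene Iqgap2 at 0.67. Nearest to Tgfbr2 were Ccn1, a matricellular protein gene, at 0.13, with signals of 2563, 1266, 1292 and 99.7, then Nrp1, a co-receptor for vascular endothelial growth factor, at 0.20, and Rell1 at 0.22. Nearest to Eng was the aminopeptidase gene Aopep at 0.05, with signals of 827, 513, 666 and 119. The protocadherin gene Pcdhb22 was at 0.12 and the ephrin receptor gene Epha2 at 0.13. In population 4 these 2 had signals of 42.1 and 54.2, raised to 100 for the distance, and Eng had 175. Their nearness to Eng thus rests in part on that limit.

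**Figure D3:**
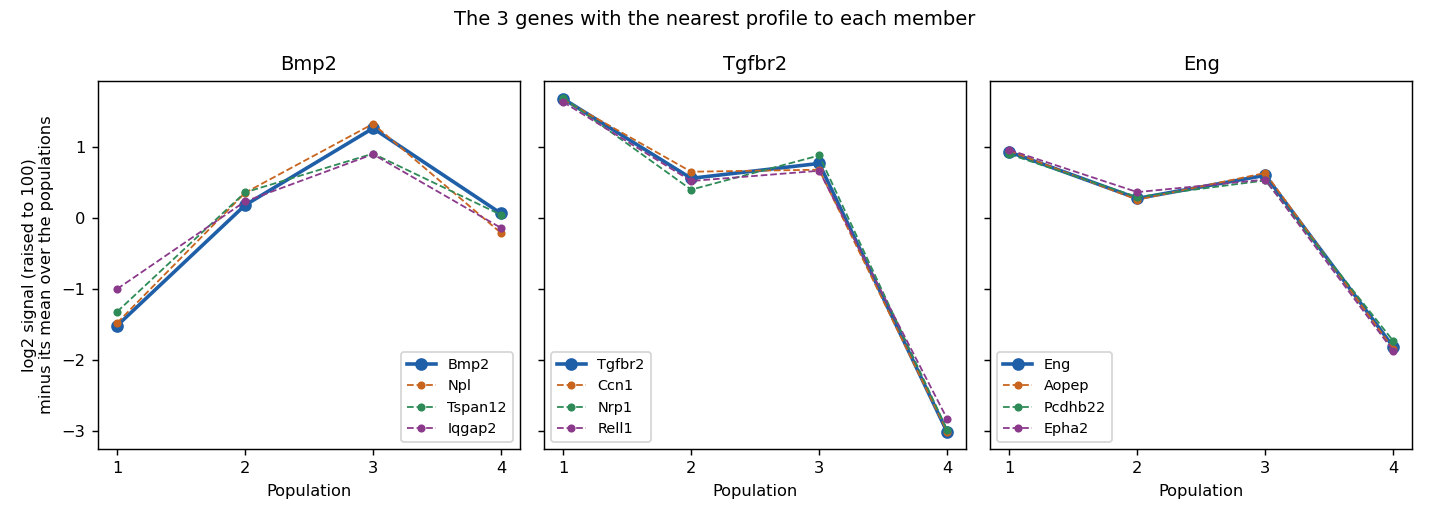
Log2 signals (raised to 100, minus their mean over the populations) of Bmp2, Tgfbr2 and Eng in blue and of the 3 genes with the nearest profile in other colours, in populations 1 to 4. Aopep lies at a distance of 0.05 from Eng, and Npl at 0.33 from Bmp2.

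The rest of the pathway was followed in 79 further genes, of which 71 were found on the array and 36 exceeded 100 in at least 1 population. Between populations 4 and 1, 16 of these 36 were at least 2-fold lower and 2 at least 2-fold higher, beside 12.9% and 22.4% of all genes. Their median log2 ratio was -0.79, beside 0.36 for all genes.

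Few other ligands were measurable, with 2 of 18 above 100. Tgfb2, the TGF-beta ligand that depends most on betaglycan, had signals of 549, 208, 169 and 79.3 in populations 1 to 4, so that population 4 was at least 5.49-fold below population 1. Inhba, the activin beta A subunit, had 103, 67.6, 51.7 and 14.1.

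Of 7 other receptors and co-receptors above 100, population 4 was at least 2-fold below population 1 for 3, beside 12.9% of all genes, and at least 2-fold above it for 0, beside 22.4%. Acvr1, the type I receptor ALK2, had signals of 1352, 640.3, 666 and 139.9, with population 4 at 9.66-fold below population 1. The pseudoreceptor gene Bambi had 1717, 1248, 1388 and 390.1, and Rgmb, a BMP co-receptor, had 302, 69.7, 58.9 and 12.3. Acvr2a, an activin type II receptor gene that did not reach 2-fold, had 379.6, 281, 307 and 213.

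Extracellular regulators differed in both directions. Between populations 4 and 1, 3 of 10 above 100 were at least 2-fold lower, beside 12.9% of all genes, and 2 at least 2-fold higher, beside 22.4%, a share near that of all genes. The follistatin-like gene Fstl1 had signals of 4503, 3827, 4386 and 599 in populations 1 to 4, Crim1, which encodes a membrane protein that binds BMPs, had 596, 120.0, 186 and 113, and Ltbp1, a binding protein of latent TGF-beta, had 566, 410.2, 555 and 186. Thbs1 encodes thrombospondin, an activator of latent TGF-beta that platelets carry. It had 164, 149.9, 148 and 400.1, and population 4 was 2.44-fold above population 1. The other higher gene was Ltbp2, with 20.4, 21.7, 14.8 and 233.

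Of 9 Smad and Smurf genes above 100, 2 were lower in population 4 than in population 1 by 2-fold or more, beside 12.9% of all genes, and 0 higher, beside 22.4%. Set against population 3, 3 of the 9 were lower by 2-fold or more in population 4, Smad1, Smad4 and Smurf1, beside 12.2% of all genes. Smad4 was close to the limit there, at a log2 ratio of -1.03, and the alternative scalings were not applied to this list. Smad1, a mediator of BMP signals, had signals of 2988, 2083, 2637 and 300.1 in populations 1 to 4, with population 4 at 9.96-fold below population 1. The ubiquitin ligase gene Smurf1 had 342, 272, 292 and 86.2. Smad4, the partner of all receptor-activated Smads, had 3363, 3208, 4056 and 1989 and Smad3, a mediator of TGF-beta signals, had 557, 374, 511 and 336, both without a 2-fold difference between populations 4 and 1.

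Of the 5 groups, target genes had the lowest median. In population 4, 7 of 8 above 100 were at least 2-fold below population 1, beside 12.9% of all genes. The median log2 ratio over the 8 was -3.12, beside 0.36 for all genes. Id3, an inhibitor of basic helix-loop-helix factors, had signals of 3142, 1518, 1319.6 and 55.1 in populations 1 to 4. Hey1, which Notch also controls, had 5319.7, 4694, 4724 and 166. Ccn2, a matricellular protein gene, had 3059, 1103, 1749 and 39.5, and the matrix protein gene Tgfbi had 922, 134, 136 and 44.1. From population 1 to 2, 6 of the 8 were already at least 2-fold lower on the deposited scale, where 4.19% of all genes were. Of these 6, Id3 and Pmepa1 were close to the limit, at log2 ratios of -1.05 and -1.03. The alternative scalings were not applied to these lists, so the count may depend on the scale between arrays.

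**Figure D4:**
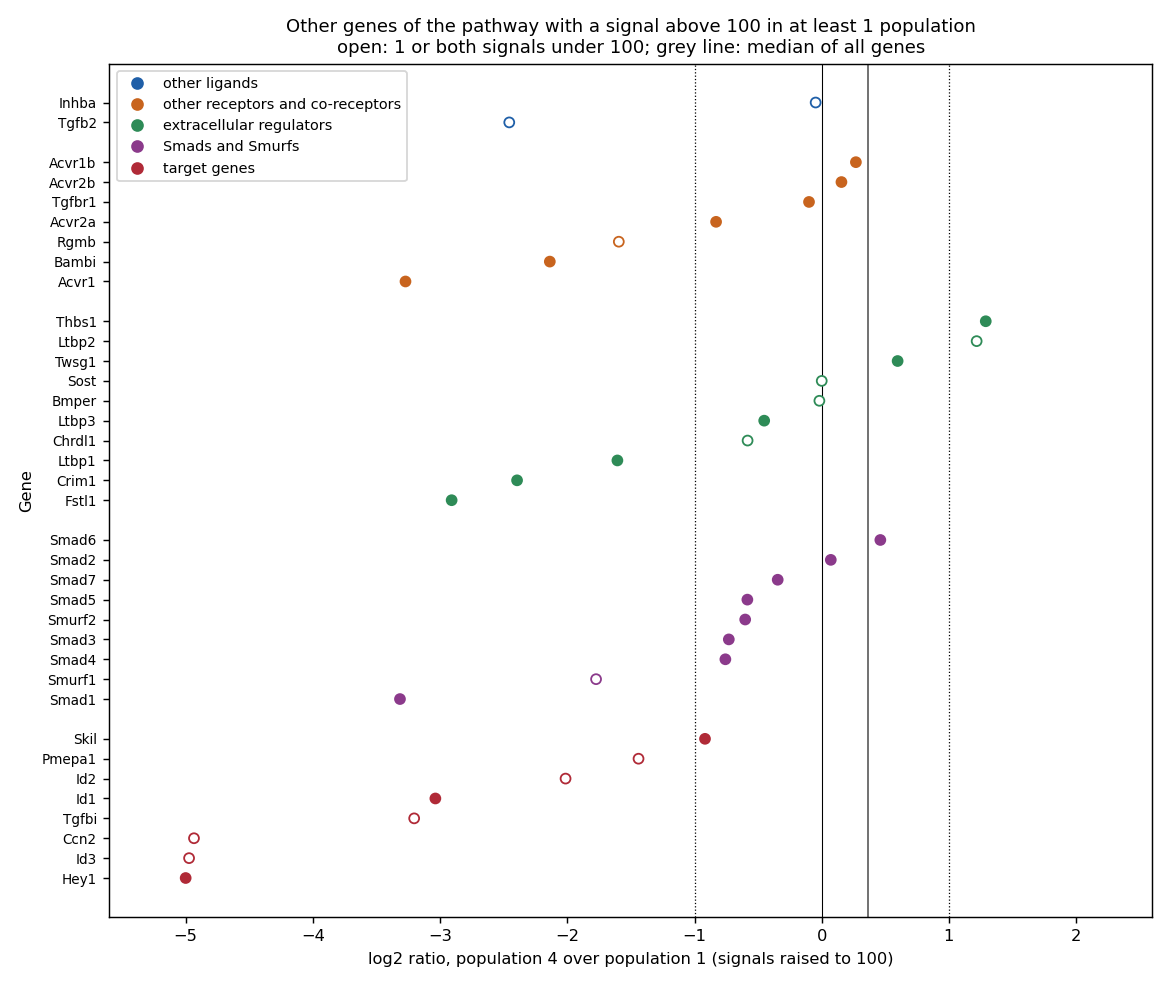
Log2 ratio of population 4 over population 1, with signals raised to 100, for 36 further genes of the pathway grouped by role, from 1 array of each population. Open points have 1 or both signals under 100, the grey line is the median of all genes at 0.36 and the dotted lines mark 2-fold. Target genes reach -5.00 and 2 extracellular regulators lie above 1.

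Promoter windows were sought for all 10 genes, whatever their levels, to show what sequence lies at their start. RefSeq windows of GRCm38.p6, with 250 bases before and 50 after the start of the gene, were found for 7 of the 10 genes. Letters were searched on both strands. For Runx factors these were TGTGGT, with TGCGGT as a variant. For GATA factors they were AGATAA, with TGATAA as a variant. For ETS factors they were CCGGAA, with CAGGAA as a variant. For Smads they were GGCGCC, with CAGACA searched as well. Neither Runx nor GATA letters were found in the 7 windows, against 22.4% and 18.6% of 32851 windows of the same length. ETS letters were found in 4 windows (41.4% of all) and Smad letters in 2 (31.3% of all). A match describes letters only, and no match says only that they are absent from this window. The sites of Eng, Tgfbr2, Bmpr2 and Bmp4, all lower in population 4, are shown. Those of Tgfb1 and Bmpr1a, which were not 2-fold lower, are shown beside them. Each is given 5′ to 3′ on the strand of the gene, with the match in capitals. The base stated is where the match begins, and the coordinates are those of the whole stretch.
Eng (ETS, chr2:32646588-32646617, + strand, from base 6 after the start): aaggaagcgcatTTCCTGcctctctgggcc
Tgfbr2 (ETS, chr9:116175314-116175341, - strand, from base 35 after the start): ttggcgaggagtTTCCTGtttccctctc
Bmp4 (ETS, chr14:46390747-46390776, - strand, from base 95 before the start): agctgtgcaatcTTCCGGacccgggccttg
Tgfb1 (ETS, chr7:25686938-25686967, + strand, from base 52 before the start): ccccgcgcgcgcTTCCTGggtggggccggg
Bmpr2 (Smad, chr1:59764162-59764191, + strand, from base 105 before the start): ctccggcggccgGGCGCCgctgcctgcccc
Bmpr1a (Smad, chr14:34502727-34502756, - strand, from base 198 before the start): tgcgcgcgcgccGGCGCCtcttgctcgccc
The ETS letters occurred both in genes lower in population 4 (Eng, Tgfbr2 and Bmp4) and in Tgfb1, which was not.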

How the data were processed

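Each sorted population was measured on 1 Affymetrix mouse genome array. The authors deposited linear signal intensities of probe sets, and the submitters' processing notes name MAS5 and GCOS 1.3. The scaling between arrays is not given in the sources used here. Groups came from the sample labels and population numbers from the study. Of 45101 probe sets, 34958 carry 1 symbol, 932 several and the others none in the annotation used. Symbols were updated through gene records of GRCm38.p6. A gene was read by its brightest probe set on the mean log2 scale. Signals were raised to 100 before fold changes. No test was possible with 1 array per population, and precision is limited by the number of arrays. The members and gene lists were chosen with earlier results of these data known. Genes named from each pathway list were up to 4 with the largest absolute log2 ratio of population 4 over population 1. Gdf2, Bmp10 and Ltbp2 were named after their values were seen. Alternatives tried were the array median as centre, quantile normalisation, scaling on 18 hybridisation or on poly-A control probe sets, averaging a gene's probe sets, dropping probe sets marked as shared, and floors of 50 and 200. The computation was tested on simulated data. Python 3.11.15, pandas 2.3.3, numpy 2.4.6 and matplotlib 3.10.9 were used.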

Additional observations from a re-analysis of the deposited data

How the results depend on the processing

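Between populations 4 and 1, 5 of the 10 genes were at least 2-fold lower. There were 3 with the mean over probe sets, without Acvrl1 and Tgfbr2, and 3 with a floor of 200, without Bmp4 and Acvrl1, settings that put more signals at the floor. There were 6 with a floor of 50, which added Bmp6 at -1.60. For the same pair the count of higher genes was 2 in place of 1 after scaling on the hybridisation controls, with Tgfb1 added at 1.27. From population 3 to 4, 7 genes in place of 4 were at least 2-fold lower with a floor of 50, which added Bmp4, Bmp6 and Acvrl1. With the mean over probe sets there were 3, without Tgfbr2. The counts for the earlier steps were small and moved with the scaling. For population 2 over population 1, 0 genes were at least 2-fold lower after centring on the array median, after scaling on the poly-A controls and with the mean over probe sets, in place of 1. There 2 were higher, in place of 1, after centring and after scaling on the poly-A controls, with Bmp6 added at 1.03 and 1.02. For population 3 over population 2, 0 genes were higher after centring, quantile normalisation and scaling on the poly-A controls, and 2 after scaling on the hybridisation controls, in place of 1. There 0 were lower after scaling on the hybridisation controls and with a floor of 200, in place of 1. For population 3 over population 1, to which the alternatives were applied after the data were seen, 1 gene was lower (Acvrl1) and 2 higher (Bmp2 and Tgfb1). There 2 were lower, with Tgfbr2 added, after centring, quantile normalisation and scaling on the poly-A controls, and 0 after scaling on the hybridisation controls, with the mean over probe sets and with a floor of 200. Only Bmp2 was higher, 1 gene, under each of these except the hybridisation controls. Where no cause is stated it was not tested. In these 5 comparisons no member's ratio of at least 2-fold changed its direction under any of the 8 alternatives, but those of Tgfbr2 became 0 with the mean over probe sets. The log2 ratio of population 4 over population 1 ranged from 1.30 to 1.91 for Bmp2, from -3.35 to -2.42 for Eng and from -2.05 to -1.42 for Bmpr2. Eng has no probe set left once those marked as shared are left out. No population could be left out as a replicate and no paired analysis was possible because each population has 1 array. Signals under 100 cannot be ordered here.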
